A study of Mus musculus with 2 samples.

Results

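The enzymes that break down the branched-chain amino acids leucine, isoleucine and valine were followed in C3H10 cells with and without MALAT1 knockdown. The 10 enzyme genes are Bcat2, Bckdha, Bckdhb, Dbt, Ivd, Mccc1, Hibadh, Aldh6a1, Acadsb and Pcca, of 46095 genes in the count table. They were chosen by their place in the pathway with the counts of these same 2 libraries already known, so every value below is a description and no p is attached to it. C3H10 (C3H/10T1/2) is a mouse mesenchymal line that turns into adipocytes under hormonal induction. Per the labels, the cells are fibroblast precursors with adipogenic ability of strain C57BL/6, although the line is generally known as derived from C3H mice. The control group, ASO NC, was transfected with a negative control antisense oligonucleotide (ASO), a short strand that directs cleavage of the RNA it pairs with. The other group, ASO MALAT1, received an ASO against the nuclear long noncoding RNA MALAT1. Both groups received 100 nM ASO before confluence, both were then induced for 2 days with isobutylmethylxanthine, dexamethasone, troglitazone and insulin and kept in insulin, and both were collected at differentiation day 6. Which of the study's ASOs against MALAT1 was sequenced is not given in the sources used here, and no untransfected or undifferentiated culture was analysed here. Each group is 1 library, so no difference has a replicate check.

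Branched-chain amino acids are first transaminated by Bcat2 in mitochondria or by Bcat1 in the cytosol, and the resulting keto acids are then decarboxylated by the branched-chain keto acid dehydrogenase complex, the committed step. After that the 3 amino acids take separate routes, each opened by its own acyl-CoA dehydrogenase, to acetyl-CoA, acetoacetate or propionyl-CoA. Differentiating adipocytes are known to raise this pathway and to use its products for fatty acid synthesis.

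The RNA-seq table held 58147539 counts for ASO NC and 61653549 counts for ASO MALAT1. Malat1 itself had 170402 counts with the control ASO and 45396 with the MALAT1 ASO, or 24.7% of the control level after scaling. Levels are given as counts-per-million (CPM) values with library sizes scaled by edgeR's TMM factors, and differences as the log2 ratio of MALAT1-knockdown over control cells (the log2 fold change of the plots). The 95% Clopper-Pearson intervals cover counting error only, not variation between cultures, and reads copied from 1 molecule would make them too narrow. In total, 17356 genes with at least 10 counts over both libraries were analysed, and all 10 members passed this filter.

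All 10 enzymes were lower in MALAT1-knockdown cells. Their median log2 ratio was -0.70, or 61.8% of the control level, against -0.0029 over all 17356 genes. The values ran from -1.09 for Ivd to -0.24 for Acadsb, and each 95% interval lay below 0. Such intervals are common at this depth. Of all 17356 genes, 4585 had an interval below 0 and 4630 above 0. Of the 8251 genes with a mean of at least 1000 counts, 2623 were below and 3076 above. The summed level of the 10 genes was 1709 CPM in control cells and 1065 CPM in MALAT1-knockdown cells. At least 1.5-fold lower were 6 members (Bcat2, Bckdha, Bckdhb, Dbt, Ivd and Aldh6a1), and 1 of these, Ivd, was at least 2-fold lower. Over all genes analysed, 11.9% were lower by at least 1.5-fold and 6.02% by at least 2-fold, while 8.29% and 3.91% were higher by these folds. The members are abundant, with 1422 to 34384 counts, and weakly expressed genes vary more. Among the 8251 genes with a mean of at least 1000 counts, 2.84% were lower by at least 1.5-fold and 0.739% by at least 2-fold, while 1.43% and 0.0121% were higher. No member was higher, and since the members were chosen with this contrast known, nothing is read from these shares. In RNA from whole cultures, fewer adipocytes and less RNA per adipocyte cannot be told apart.

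**Figure D1:**
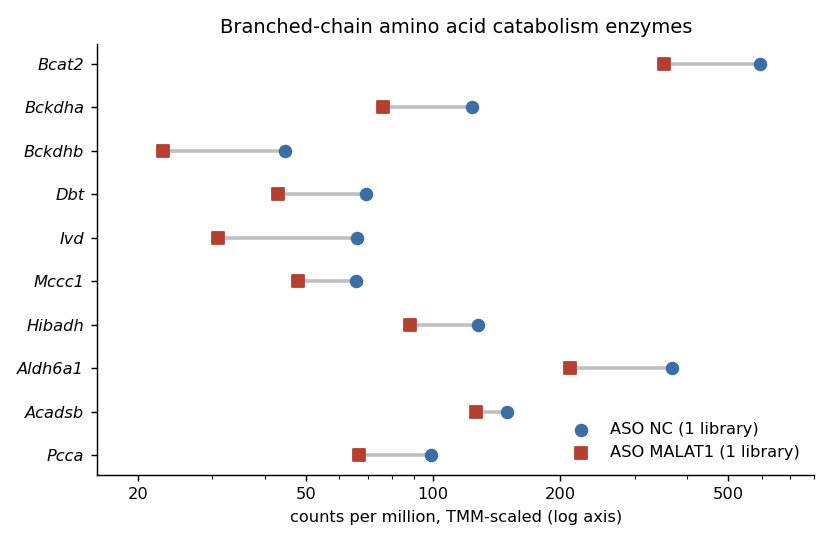
Level of each enzyme gene in the control library (blue circles) and the MALAT1-knockdown library (red squares), in TMM-scaled CPM on a log axis, with 1 library per group. In every gene the knockdown library lies to the left, with the widest gap for Ivd (66.1 against 30.9 CPM) and the narrowest for Acadsb (149 against 127 CPM).

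Bcat2, the mitochondrial aminotransferase that starts the pathway, was the most abundant member. It had 34384 counts (596 CPM) with the control ASO and 21876 counts (352 CPM) with the MALAT1 ASO, a log2 ratio of -0.76 (95% interval -0.78 to -0.73). Per kilobase of its longest coding transcript this was 286 CPM in control cells and 169 CPM in knockdown cells, the highest of the 10 genes in both libraries. The cytosolic enzyme Bcat1, not a member, moved the other way from a very low level. It had 435 counts with the control ASO and 579 with the MALAT1 ASO, a log2 ratio of 0.31 (95% interval 0.12 to 0.49), which is under 1.5-fold. Its level per kilobase was 0.962 and 1.19 CPM, so Bcat2 made up nearly all aminotransferase RNA in both libraries. The log2 ratios of Bcat2 and Bcat1 differed by -1.06 (95% counting interval -1.25 to -0.88).

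The dehydrogenase complex is built from a decarboxylase (E1, with an alpha chain from Bckdha and a beta chain from Bckdhb), a transacylase core (E2, from Dbt) and a flavoprotein (E3, from Dld) that it shares with other complexes. Bckdha had 7137 counts (124 CPM) with the control ASO and 4720 counts (76.0 CPM) with the MALAT1 ASO, a log2 ratio of -0.70 (95% interval -0.76 to -0.65). Dbt had 3998 counts (69.3 CPM) and 2672 counts (43.0 CPM), a log2 ratio of -0.69 (95% interval -0.76 to -0.62). The log2 ratios of Bckdha and Dbt did not differ beyond counting error, with a difference of -0.02 (95% counting interval -0.10 to 0.07). Bckdhb was further below its control level than both. It had 2579 counts (44.7 CPM) with the control ASO and 1422 counts (22.9 CPM) with the MALAT1 ASO, a log2 ratio of -0.97 (95% interval -1.06 to -0.87), or 51.2% of the control level. Its log2 ratio differed from that of Bckdha by -0.26 (95% counting interval -0.37 to -0.15) and from that of Dbt by -0.28 (95% counting interval -0.39 to -0.16). Dld had 18421 and 12920 counts, a log2 ratio of -0.62 (95% interval -0.65 to -0.59). With Dld, which is not a member, all 4 genes of the complex were lower by at least 1.5-fold.

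Bckdk, the kinase that switches the complex off, and Ppm1k, the phosphatase that switches it on, stayed near the control level. Bckdk had 2679 counts with the control ASO and 2939 with the MALAT1 ASO, a log2 ratio of 0.03 (95% interval -0.05 to 0.10). For Ppm1k the counts were 668 and 761, a log2 ratio of 0.08 (95% interval -0.07 to 0.23). Both intervals hold 0, and the kinase and phosphatase differed from each other by -0.05 (95% counting interval -0.22 to 0.11). Slc25a44, the carrier that brings branched-chain amino acids into mitochondria, was lower with 4050 and 3419 counts (log2 ratio -0.35, 95% interval -0.42 to -0.28).

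On the leucine route, Ivd, the isovaleryl-CoA dehydrogenase, was the lowest of all members relative to control. It had 3813 counts (66.1 CPM) with the control ASO and 1922 counts (30.9 CPM) with the MALAT1 ASO, a log2 ratio of -1.09 (95% interval -1.17 to -1.02), or 46.8% of the control level. Of the 8251 abundant genes, 0.62% had a log2 ratio at or below this value. Mccc1 encodes the biotin-carrying alpha chain of methylcrotonyl-CoA carboxylase, the next enzyme. It had 3791 counts (65.7 CPM) and 2975 counts (47.9 CPM), a log2 ratio of -0.46 (95% interval -0.53 to -0.39). Its partner Mccc2, the beta chain, had 2766 and 1687 counts and a log2 ratio of -0.82 (95% interval -0.91 to -0.73), so the chains of this enzyme differed by 0.36 (95% counting interval 0.25 to 0.47). Auh and Oxct1 were close to the control level. Auh, the methylglutaconyl-CoA hydratase, had 2746 and 2586 counts (log2 ratio -0.19, 95% interval -0.27 to -0.12). Oxct1, which activates acetoacetate for oxidation, had 18714 and 18450 counts (log2 ratio -0.13, 95% interval -0.16 to -0.10).

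Along the valine route, Aldh6a1 and Hibadh are members. Aldh6a1, the methylmalonate semialdehyde dehydrogenase that ends the route, had 21247 counts (368 CPM) with the control ASO and 13106 counts (211 CPM) with the MALAT1 ASO, a log2 ratio of -0.80 (95% interval -0.84 to -0.77). Hibadh, the hydroxyisobutyrate dehydrogenase one step earlier, had 7363 counts (128 CPM) and 5476 counts (88.1 CPM), a log2 ratio of -0.53 (95% interval -0.58 to -0.48). The difference between these neighbours in the route was 0.27 (95% counting interval 0.21 to 0.33). Hibch, the hydrolase that supplies Hibadh, had 4342 and 2927 counts (log2 ratio -0.68), and Acad8, the isobutyryl-CoA dehydrogenase, had 2590 and 2184 counts (log2 ratio -0.35, 95% interval -0.44 to -0.27).

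The 3 genes grouped here under the isoleucine route were less than 1.5-fold lower. Enzymes that the routes share with fatty acid oxidation were grouped apart, among them Echs1 at -0.61, which is past 1.5-fold. Acadsb, the short/branched-chain acyl-CoA dehydrogenase, had 8618 counts (149 CPM) with the control ASO and 7865 counts (127 CPM) with the MALAT1 ASO. Its log2 ratio of -0.24 (95% interval -0.28 to -0.19), or 84.8% of the control level, was the closest to 0 among the members. Hsd17b10, a dehydrogenase of this route, had 8221 and 6613 counts (log2 ratio -0.42), and Acat1, the mitochondrial thiolase, had 14375 and 11857 counts (log2 ratio -0.38). The acyl-CoA dehydrogenases of the routes were all lower, by amounts that differed beyond counting error in intervals not adjusted for the number of pairs. Variation between cultures was not measured. The log2 ratio of Ivd differed from that of Acadsb by -0.86 (95% counting interval -0.95 to -0.77) and from that of Acad8 by -0.74 (95% counting interval -0.86 to -0.63), while Acad8 and Acadsb differed by -0.11 (95% counting interval -0.21 to -0.02).

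Propionyl-CoA from valine and isoleucine is carboxylated by an enzyme whose alpha chain is Pcca. Pcca had 5696 counts (98.7 CPM) with the control ASO and 4151 counts (66.8 CPM) with the MALAT1 ASO, a log2 ratio of -0.56 (95% interval -0.62 to -0.51). Pccb, its beta chain, had 4178 and 2967 counts and a log2 ratio of -0.60, and the chains differed by 0.04 (95% counting interval -0.05 to 0.13). Unlike for the methylcrotonyl-CoA carboxylase chains, the interval of this difference holds 0. Downstream, the epimerase Mcee had 903 and 780 counts (log2 ratio -0.32) and Mmut, the methylmalonyl-CoA mutase, listed under its older symbol Mut, had 7008 and 5428 counts (log2 ratio -0.48).

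**Figure D2:**
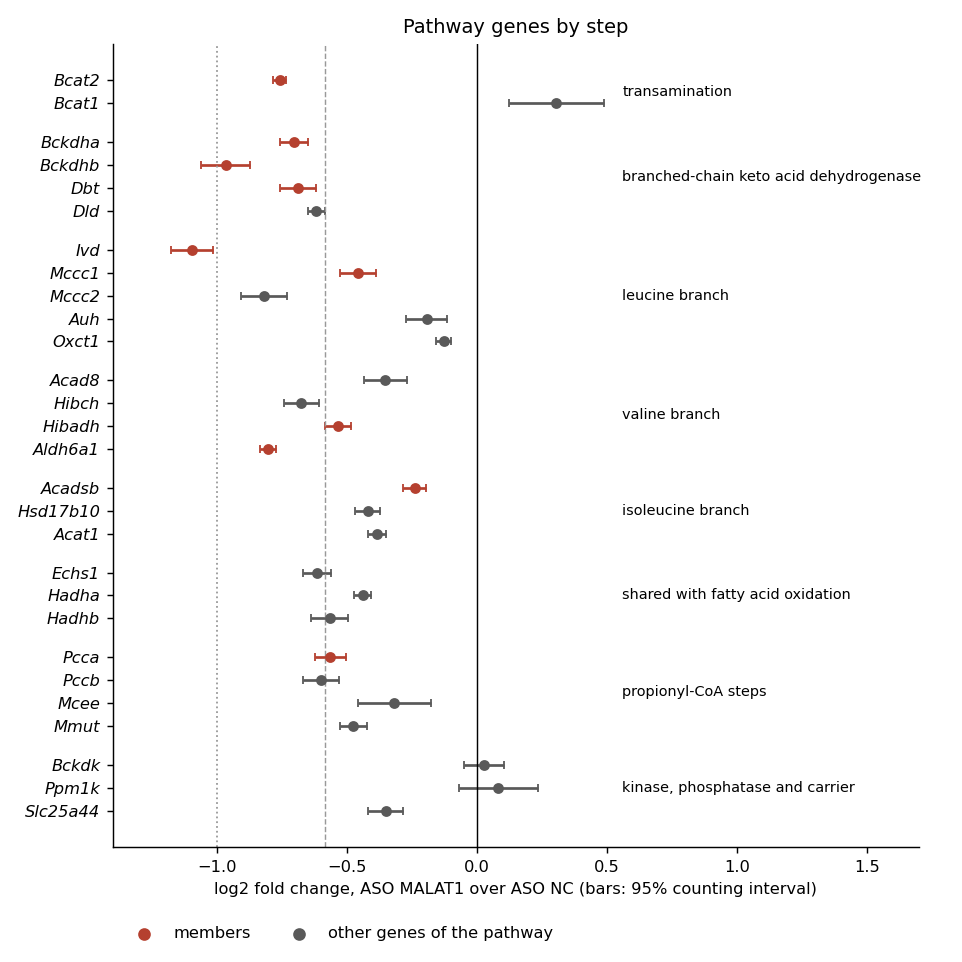
Log2 fold change of MALAT1-knockdown over control cells for 28 genes of the pathway grouped by step, with members in red, other genes in grey and bars for the 95% counting interval. Dashed and dotted lines mark 1.5-fold and 2-fold lower. All points of the dehydrogenase complex lie left of the dashed line, whereas Bckdk (0.03) and Ppm1k (0.08) lie beside 0 and Bcat1 (0.31) to its right.

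Over the 16 other enzymes of the pathway the median log2 ratio was -0.43, with 15 lower, Bcat1 the exception, and 5 lower by at least 1.5-fold (Dld, Echs1, Hibch, Mccc2 and Pccb) against the shares of 11.9% of all and 2.84% of abundant genes given above. Of these, 0 were at least 2-fold lower and 0 at least 1.5-fold higher. Echs1, Hadha and Hadhb, which also serve fatty acid oxidation, had log2 ratios of -0.61, -0.44 and -0.57. Taking members and other enzymes as 1 pathway of 26 genes, 25 were lower and 11 by at least 1.5-fold. By step, the median was -0.70 for the 4 dehydrogenase complex genes, -0.60 for the 4 valine genes and -0.52 for the 4 propionyl-CoA genes. It was -0.38 for the 3 isoleucine genes and -0.32 for the 6 leucine genes. Echs1, Hadha and Hadhb were kept apart from the routes, with a median of -0.57. For transamination, with Bcat2 and Bcat1, the median was -0.23. This grouping was made after the values were seen.

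Partners of the enzymes were also examined. Of 13 genes for biotin, lipoate, thiamine and cobalamin supply and for electron transfer, 11 were lower, with a median log2 ratio of -0.37. At least 1.5-fold lower were 3, beside 11.9% of all genes analysed and 2.84% of abundant genes. Lipt1, which transfers lipoate to the E2 chains, was among these 3 (492 and 333 counts, log2 ratio -0.67). Hlcs, the ligase that attaches biotin to carboxylases such as Mccc1 and Pcca, had 1092 and 800 counts (log2 ratio -0.56). The electron acceptors of the acyl-CoA dehydrogenases, Etfa, Etfb and Etfdh, had log2 ratios of -0.35, -0.46 and -0.37. Mmadhc, a cobalamin-handling protein, and Lipt2 were not lower, at 0.12 and 0.10. Among regulators and transporters, Klf15, a transcription factor known to act on branched-chain amino acid catabolism, had 1538 and 1046 counts (log2 ratio -0.66, 95% interval -0.78 to -0.55). Slc7a5, a large neutral amino acid transporter, had 3927 and 2630 counts (-0.68), while its heavy chain Slc3a2 had 12996 and 12507 counts (-0.16). Slc43a2 was at -0.34, and Slc43a1, with 115 and 69 counts, was at -0.84 with a wide interval from -1.30 to -0.40.

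The sister complexes that use the same E3 chain gave a mixed picture. Over 13 genes of pyruvate and 2-oxoglutarate dehydrogenase and their kinases and phosphatases the median log2 ratio was -0.32. Of these genes, 10 were lower, 4 of them by at least 1.5-fold, beside 11.9% of all genes analysed and 2.84% of abundant genes. The 95% intervals of 2 genes lay above 0. Dlat, the E2 chain of pyruvate dehydrogenase, was at -0.71 and differed from Dbt by only 0.02 (Dbt minus Dlat, 95% counting interval -0.06 to 0.11). Pdhb, its E1 beta chain, was at -0.62, above Bckdhb (Bckdhb minus Pdhb -0.34, 95% counting interval -0.45 to -0.24). Pdk2, a kinase of that complex, was at -0.74. Pdha1, the E1 alpha chain, chosen after its values were seen, was near the control level with 25355 and 25497 counts (log2 ratio -0.10), so that Bckdha lay -0.60 from it (95% counting interval -0.66 to -0.55).

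Beside 5 other lists, the members had the lowest median. It was -0.45 over 11 fatty acid beta-oxidation genes, -0.40 over 14 citric acid cycle genes, -0.38 over 24 genes for breakdown of other amino acids and -0.23 over 21 mitochondrial ribosomal and import genes. For 15 cytosolic ribosomal protein genes it was -0.01. The 16 other enzymes of the same pathway, at -0.43, lay between the beta-oxidation and citric acid cycle lists. The ranges overlapped. Acadm, the medium-chain acyl-CoA dehydrogenase, was at -0.79, Idh3b, a subunit of mitochondrial isocitrate dehydrogenase, at -0.60, and Cth, which makes cysteine from cystathionine, at -1.12, close to Ivd. The alanine aminotransferase Gpt2 was at -0.97, as was Bckdhb. Acadvl, the very long-chain dehydrogenase, was far higher, at 1.91 (95% interval 1.64 to 2.20), but from a low level. It had 135 counts (2.34 CPM) with the control ASO and 548 counts (8.82 CPM) with the MALAT1 ASO. No difference between lists was tested, and the members were chosen with their values known.

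**Figure D3:**
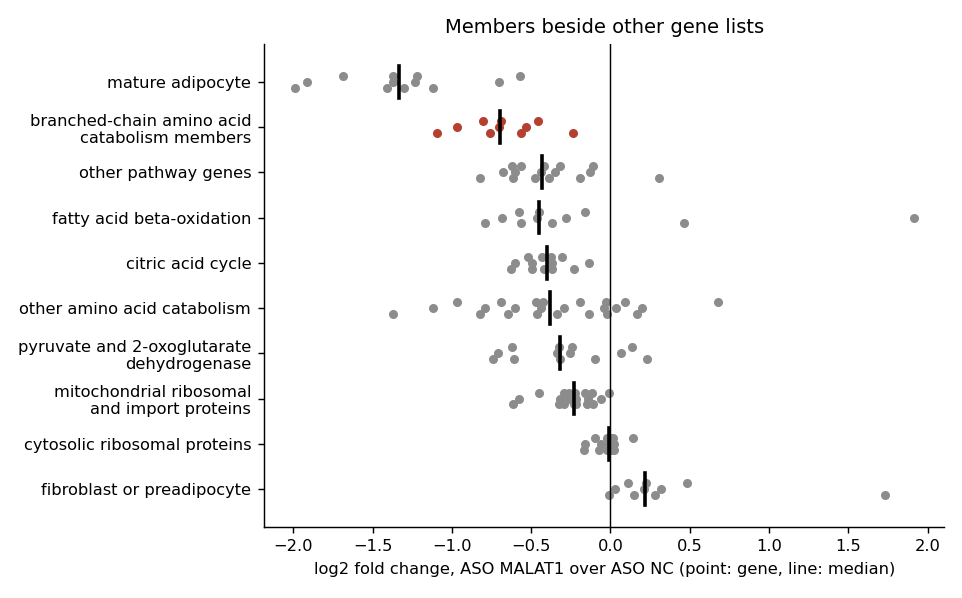
Log2 fold change of MALAT1-knockdown over control cells for each gene (points) of 10 gene lists with the list median (black line). Members (red) have a median of -0.70, between -1.34 for mature adipocyte markers and -0.45 for fatty acid beta-oxidation.

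Markers of the differentiated state moved with these genes. All 12 mature adipocyte markers were lower, with a median log2 ratio of -1.34. At least 1.5-fold lower were 11 of them and at least 2-fold lower 10. The shares were 11.9% and 6.02% of all genes analysed, and 2.84% and 0.739% of abundant genes. Adipoq had 38769 and 16923 counts. Pparg, the marker less than 1.5-fold lower, had 11816 and 8552 (log2 ratio -0.57). Slc2a4, counted among the 11, was nearly absent at 26 and 17 counts, and its 95% interval of -1.69 to 0.22 holds 0. The summed level of the 12 markers was 6565 CPM in control cells and 2592 CPM in MALAT1-knockdown cells. Thus the summed marker level was 39.5% of control and that of the members 62.3%. Of 12 fibroblast and preadipocyte markers 10 were analysed, with a median of 0.22 and a summed level of 19439 and 21279 CPM, and Dlk1 was at 0 counts in both libraries. Cd34, at 19 and 69 counts, was the only one of these past 1.5-fold. Defining markers of several other cell types were at 0. Myod1, Myog, Myf5 and Acta1 of muscle, Ptprc and Adgre1 of blood cells and Sost and Acan of bone and cartilage had 0 counts in both libraries, which allows up to 0.052 CPM in control and 0.0483 CPM in knockdown cells (3 counts). Of 7 muscle markers only Des passed the filter (448 and 314 counts), and of 6 blood and endothelial markers only Cd68 (172 and 119) and Pecam1 (26 and 25). Of 7 bone and cartilage markers, Sox9 (6570 and 10050 counts), Col2a1 (378 and 692) and Ibsp (6 and 16) did, with a summed level of 121 and 173 CPM. Brown adipocyte markers summed to 9.34 and 6.79 CPM, with Ucp1 at 1 count in each library, but did not move together. Cidea (40 and 4 counts), Cox8b (56 and 13) and Elovl3 (37 and 6) were at least 2-fold lower from low counts, Ppargc1a was higher (107 and 158), and the median log2 ratio of the 5 analysed was -2.17. The part of these marker differences in the enzyme differences was not tested.

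**Figure D4:**
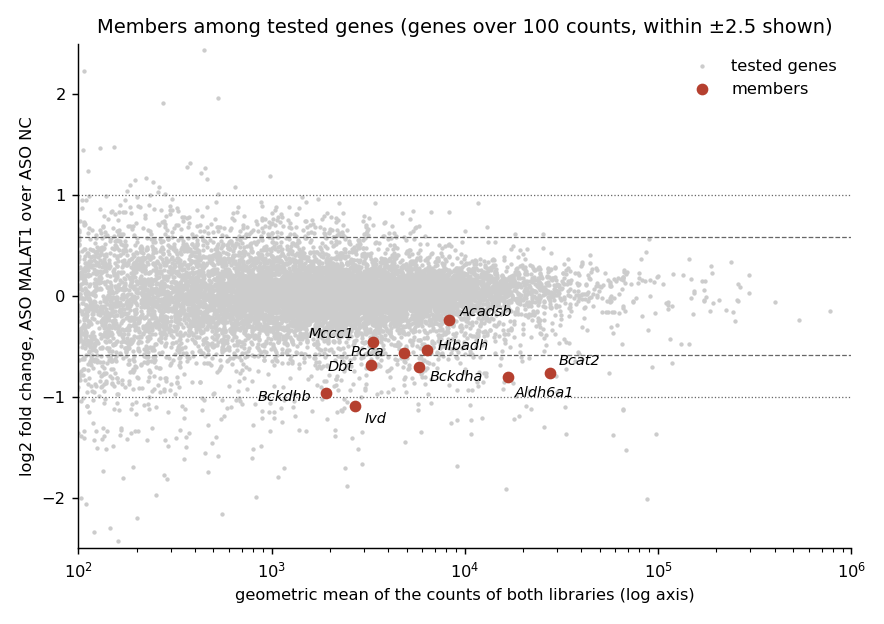
Log2 fold change of MALAT1-knockdown over control cells against the geometric mean of both counts on a log axis, for genes over 100 counts and within ±2.5, with members in red, other tested genes in grey, and lines at 1.5-fold (dashed) and 2-fold (dotted). All 10 members lie below 0, with 6 under the dashed line and Ivd under the dotted line.

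Levels of the members spread widely. Per kilobase of the longest coding transcript in GENCODE M21, the order in control cells was Bcat2 (286 CPM), Aldh6a1 (108), Hibadh (69.9), Bckdha (65.1), Pcca (38.1), Bckdhb (30.3), Mccc1 (26.8), Acadsb (24.6), Dbt (21.0) and Ivd (18.0). In MALAT1-knockdown cells Bcat2 (169), Aldh6a1 (62.1), Hibadh (48.3) and Bckdha (40.0) kept the first places, while Bckdhb went to 15.5, below Acadsb (20.8) and Mccc1 (19.5), and Ivd stayed last at 8.44. The order depends on the transcript length used. With the union of all exons, chosen after the data were examined, Hibadh went from the third to the eighth place and Mccc1 took the last, whereas Bcat2 stayed first.

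The members are not clustered in the genome. In GENCODE M21 (GRCm38) all are protein-coding. Bckdha (chr7:25629946-25658981, minus strand), Bcat2 (chr7:45570153-45589711, plus strand) and Acadsb (chr7:131410601-131448944, plus strand) share a chromosome, as do Mccc1 (chr3:35959312-36000678, minus strand) and Dbt (chr3:116513070-116549981, plus strand). The others are Ivd (chr2:118861954-118882909, plus strand), Hibadh (chr6:52546228-52640389, minus strand), Bckdhb (chr9:83925145-84124240, plus strand), Aldh6a1 (chr12:84430717-84451004, minus strand) and Pcca (chr14:122534324-122891100, plus strand). Exons of 2 members overlap a protein-coding gene with reads on the opposite strand. Pcca shares 241 bases with Ggact, which had 2259 and 2613 counts, and Aldh6a1 shares 817 bases with Bbof1, which had 250 and 218 counts. Mccc1 overlaps Gm15952 (86 and 83 counts) and Mccc1os (5 and 19) in the same way, and the genes that overlap Bcat2 and Bckdha had 0 counts. How the counting treated strand is not given in the sources used here, so reads from these stretches cannot be assigned with certainty. No other GENCODE transcript outside such overlaps matched a member with at least 95% identity over at least 200 bases.

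Because the members were lower together, their promoters were read. RefSeq start sites (GRCm38.p6) gave 13 windows of 250 bases before to 50 bases after the start for 9 of the 10 genes, and Dbt had no entry. The 250 bases before the start are shown for the lowest members, Ivd and Bckdhb, for Aldh6a1, whose window at the upstream start site holds as many CCAAT boxes as that of Ivd, and for Acadsb, the member nearest to the control level. Capitals mark the CCAAT box (CCAAT, or ATTGG on the other strand) and the nuclear receptor half-site (AGGTCA, or TGACCT on the other strand), each read 5′ to 3′ on the strand of the gene.
Ivd (chr2:118861744-118861993, plus strand): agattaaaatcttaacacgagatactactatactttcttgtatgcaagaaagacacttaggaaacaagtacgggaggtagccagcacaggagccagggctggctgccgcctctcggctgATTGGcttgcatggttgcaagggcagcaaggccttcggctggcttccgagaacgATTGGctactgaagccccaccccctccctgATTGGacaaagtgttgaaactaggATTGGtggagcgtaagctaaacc
Bckdhb (chr9:83924887-83925136, plus strand): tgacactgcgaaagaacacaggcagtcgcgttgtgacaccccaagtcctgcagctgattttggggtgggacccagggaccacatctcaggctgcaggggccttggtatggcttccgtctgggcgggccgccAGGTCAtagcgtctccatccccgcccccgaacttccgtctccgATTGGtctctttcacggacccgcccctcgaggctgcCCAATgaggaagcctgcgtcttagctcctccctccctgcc
Aldh6a1 (chr12:84451025-84451274, minus strand): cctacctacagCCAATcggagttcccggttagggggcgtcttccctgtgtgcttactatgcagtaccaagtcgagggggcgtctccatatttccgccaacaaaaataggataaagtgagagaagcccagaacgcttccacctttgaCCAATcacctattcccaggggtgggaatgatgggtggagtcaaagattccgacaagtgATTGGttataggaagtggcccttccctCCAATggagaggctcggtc
Acadsb (chr7:131410351-131410600, plus strand): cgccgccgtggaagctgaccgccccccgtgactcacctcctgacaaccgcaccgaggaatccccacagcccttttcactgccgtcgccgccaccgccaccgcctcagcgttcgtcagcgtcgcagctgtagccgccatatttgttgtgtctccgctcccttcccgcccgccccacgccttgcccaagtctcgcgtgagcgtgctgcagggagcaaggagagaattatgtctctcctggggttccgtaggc

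In the windows shown, Ivd held 4 CCAAT boxes, which began 131, 77, 47 and 23 bases before the start site, and Aldh6a1 held 4 at 239, 104, 46 and 19 bases. Bckdhb had 2 at 76 and 40 bases and a half-site at 119 bases. Of the windows not printed, that of Mccc1 had 3 CCAAT boxes at 52, 44 and 12 bases, and another window of Aldh6a1 had 2. Acadsb, Bckdha and Bcat2 had no CCAAT box in their windows. By gene, 6 of 9 held a CCAAT box. Among these, Ivd, Bckdhb and Aldh6a1 were at least 1.5-fold lower in knockdown cells, and Mccc1, Hibadh and Pcca were not. Among the genes without a box, Bcat2 and Bckdha were at least 1.5-fold lower, and Acadsb was not. A link between motifs and log2 ratios was not tested. Counting windows on both strands, 9 of 13 held a CCAAT box against 37.4% of all 32534 windows, and 5 of 13 held AGGTCA against 16.3%. GC boxes (GGGCGG) were in 5 of 13 against 35.9%, and TTGCNNAA, a C/EBP-type sequence, was in 1 of 13 (Acadsb) against 10.8%. None of the 13 held TATAAA (13.6% of all windows), CACGTG (7.17%), TCAAGGTCA (0.412%), TGACGTCA (1.8%), the palindrome GCGCATGCGC (0.974%) or the repeat AGGTCANAGGTCA read by PPAR receptors (0.04%). The half-site is part of both TCAAGGTCA and this repeat, so these counts overlap. A match is only a run of letters, and windows of the same gene are not independent.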

How the data were processed

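Total RNA depleted of rRNA was sequenced from 1 library per group. The authors deposited counts of reads per gene symbol, whole numbers without normalization, and the submitters' processing notes name HISAT2 and GRCm38. The counting tool, annotation, strand setting and treatment of duplicate and multi-mapped reads are not given in the sources used here. A gene was kept when its 2 counts summed to at least 10, and library sizes were scaled by TMM (edgeR 4.0.16, R 4.3.3). The log2 fold change used a prior count of 0.5. With 1 library per group no test was run, and genes were counted when past 1.5-fold or 2-fold. The 95% Clopper-Pearson intervals were checked on simulated counts with counting error only, where 95.7% of intervals held the true value. That check does not cover variation between cultures or copied reads. Differences between the log2 fold changes of 2 genes, for 15 pairs, have normal intervals from the 4 counts, not adjusted for the number of pairs. Alternatives were library totals, DESeq2 size factors (DESeq2 1.42.0), upper-quartile factors, filters and prior counts. Copies were sought with BLAST+ 2.17.0. The members and lists were chosen with earlier results of these data known. Named are the members, all pathway genes, regulators and partners, and up to 3 genes with the largest fold change in each comparison list with a mean of at least 100 counts, and some genes that this rule names are not reported here. Other genes are said to be chosen after their values were seen, apart from markers and overlapping genes.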

Additional observations from a re-analysis of the deposited data

How the results depend on the processing

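Scaling by library totals, DESeq2 size factors or upper-quartile factors, filters of at least 1 count summed or a minimum of 10 per library, and prior counts of 2 or 0.1 left 6 members lower by at least 1.5-fold and 1 by at least 2-fold in each case. The member median ranged from -0.70 to -0.67, and no value of a member moved by more than 0.0235. Among the 16 other enzymes, 4 to 5 were at least 1.5-fold lower, and their median ranged from -0.43 to -0.41. The counts over all genes depended on the filter. With at least 1 count summed, 4402 genes were lower by at least 1.5-fold and 3139 by at least 2-fold, and a minimum of 10 per library gave 1236 and 423, against 2061 and 1045, since these filters differ in how many weakly expressed genes they keep. The brown adipocyte median, which rests on few counts, moved as well. Leaving out a replicate was not possible with 1 library per group. No paired analysis was possible because each group holds 1 library. Depth limits Bckdhb most, with an interval 0.188 wide on the log2 scale, and Bcat2 least, with 0.049.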

Other observations

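Of the 3 protein-coding genes on each side of every member, 60 in all, 42 were analysed. The rest had too few counts or were not found under their symbol in the count table. The median log2 fold change of the 42 was 0.0037, with 4 lower and 3 higher by at least 1.5-fold, beside 11.9% and 8.29% of all genes analysed. Chosen after their values were seen, Fgf21, a secreted metabolic hormone next to Bcat2, had 21 counts with the control ASO and 1 with the MALAT1 ASO, and Lrrc39, next to Dbt, had 42 and 9. Ttk, a mitotic kinase next to Bckdhb, had 737 and 1276 counts, and Knstrn, a spindle protein gene next to Ivd, had 1834 and 2991.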
